A study of Mus musculus with 8 samples.

Results

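Irf4, Egr2, Klf4, Pparg and Myc are 5 transcription factor genes whose RNA was compared here between macrophages treated with interleukin-4 (IL-4) and untreated macrophages. They are 5 of the 31020 loci of the authors' merged annotation. They were chosen by position on the mouse build mm9: a locus counted if a transcript of it that matches a reference transcript and carries a coding-sequence identifier lies on the strand and in the interval of the gene. The 4 IL-4 libraries and the 4 untreated libraries both came from bone marrow-derived macrophages of C57BL/6 mice, with no further allele or agent named. The labels name neither the dose of IL-4 nor the length of treatment. Total RNA was depleted of ribosomal RNA before sequencing. The series design text speaks of biological replicates, and the labels do not say whether each sample came from its own animal. The p-values therefore cover the spread among these samples and no more.

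IL-4 is a cytokine of type-2 immunity that binds a receptor at the macrophage surface and, through Janus kinases, activates the transcription factor STAT6. Macrophages exposed to it take up the state called alternative activation, with its own enzymes, receptors and lipid metabolism. IRF4, an interferon regulatory factor, EGR2 and KLF4, both zinc-finger factors, PPARγ, a nuclear receptor bound by fatty acids, and MYC, which binds DNA together with MAX, are factors that act in this state downstream of the receptor.

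The locus named Irf4 (XLOC_006456) lies at chr13:30841086-30859024 on the plus strand and holds 4 isoforms. Egr2 (XLOC_001881) lies at chr10:66999129-67077806 on the plus strand and holds 12 isoforms, some of them far downstream of chr10:67000617-67004936, the span of its reference transcripts. Reference transcripts here are those carried unchanged into the merged annotation, while an assembled isoform can match the introns of one and reach farther, as TCONS_00005790 of Egr2 does (chr10:66999663-67016692). Klf4 (XLOC_019363) lies at chr4:55537547-55545352 on the minus strand with 3 isoforms. Pparg (XLOC_022526) lies at chr6:115311006-115440419 on the plus strand with 7 isoforms, and Myc (XLOC_008983) at chr15:61815655-61823795 on the plus strand with 7 isoforms. The files pair no locus with a gene name, and 0 of their IDs occurred in the reference tables, so the names rest on position. As a check of the names, the unchanged reference transcripts of Klf4, without longer assembled matches, span 5339 nucleotides (nt) and those of Myc 5021 nt, the lengths that RefSeq gives for these genes on GRCm38. The same pair of lengths was 17670 nt on mm9 and 17749 nt in RefSeq for Irf4, 129181 and 129526 nt for Pparg, and 4320 and 7720 nt for Egr2. For want of names, macrophage markers could not be looked up, and the labelled cell type was not checked.

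The sequences just upstream of the annotated starts are shown for Irf4 and Klf4, the 2 loci with the larger changes below, and for Pparg, whose first exons changed apart from each other. RefSeq's promoter table (GRCm38.p6) held 10 windows for 4 of the loci (Irf4, Egr2, Klf4 and Pparg). In the following lines each sequence is the 250 bases before a start, 5′ to 3′ on the strand of the gene. Capitals mark TATAA, on either strand, within the last 50 bases before the start of Irf4 and of the Pparg windows.
Irf4, chr13:30748983-30749232, plus strand: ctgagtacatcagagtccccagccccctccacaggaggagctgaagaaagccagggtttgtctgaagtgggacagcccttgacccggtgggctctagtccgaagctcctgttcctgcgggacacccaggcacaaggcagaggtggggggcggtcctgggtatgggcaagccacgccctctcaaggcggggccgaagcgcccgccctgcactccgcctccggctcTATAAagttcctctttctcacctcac
Pparg, first start along the gene, chr6:115360894-115361143, plus strand: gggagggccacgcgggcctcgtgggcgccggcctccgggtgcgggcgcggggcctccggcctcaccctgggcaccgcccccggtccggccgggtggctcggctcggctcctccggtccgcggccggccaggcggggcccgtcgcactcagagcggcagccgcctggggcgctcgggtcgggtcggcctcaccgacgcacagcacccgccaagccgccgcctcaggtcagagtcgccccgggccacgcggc
Pparg, second start along the gene, chr6:115362099-115362348, plus strand: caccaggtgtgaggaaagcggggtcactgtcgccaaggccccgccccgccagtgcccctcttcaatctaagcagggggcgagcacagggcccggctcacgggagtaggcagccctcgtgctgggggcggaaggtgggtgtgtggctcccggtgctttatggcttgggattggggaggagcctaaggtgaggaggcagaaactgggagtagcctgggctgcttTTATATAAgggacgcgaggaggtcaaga
In the Klf4 sequence, capitals mark instead the matches to CACGTG and to GCGNGGGCG.
Klf4, chr4:55532476-55532725, minus strand: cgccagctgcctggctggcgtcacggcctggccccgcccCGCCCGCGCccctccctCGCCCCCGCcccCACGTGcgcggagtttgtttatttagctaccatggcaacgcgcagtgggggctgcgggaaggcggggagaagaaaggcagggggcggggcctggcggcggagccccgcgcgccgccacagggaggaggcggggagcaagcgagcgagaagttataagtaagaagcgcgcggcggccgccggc

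The first Pparg window had 82.4% G and C and no TATAA in its last 50 bases. The second Pparg window, whose start lies 1205 bases downstream, had 63.6% G and C, and TATAA began 25 bases before its start. The median over all 32851 promoter windows was 52.4% G and C, and 6.36% of them held TATAA on either strand in those 50 bases. Irf4 had TATAA 26 bases and Klf4 31 bases before the start. In Klf4 and in the second Pparg window a match on the other strand overlapped it. TATAA was chosen after the sequences had been seen. The third Pparg window and 4 of the 5 Egr2 windows held none.

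A further 6 motifs were searched on both strands in the whole windows, which reach from 250 bases before to 50 bases after the start. The 2 forms of a STAT6 site, TTC and GAA parted by 4 or by 3 bases, had no match in the 10 windows, and stood in 6.95% and 8.3% of all promoters. The Egr2 windows whose starts lie 2370, 2371 and 2431 bases after the first Egr2 start overlap each other. With few separate windows and most promoters lacking a match, this absence is given no weight. The IRF motif, GAAA repeated after 2 bases (3.44% of all promoters) and the KLF motif GGGTGTGG (3.56%) had none either. CACGTG, the E-box that MYC binds, was found 27 bases before the first Egr2 start and 182 bases before the Klf4 start, and in 7.15% of all promoters. The later Egr2 windows held no CACGTG, and the Egr2 windows were not placed on the mm9 exons. GCGNGGGCG, an EGR motif, occurred in 5.55% of all promoters and had 2 matches in Klf4, both on the other strand, whose leftmost bases lie 211 and 194 bases before the start. The matches marked in the Klf4 sequence do not overlap. A match is a string of letters in these windows, not a measured binding site.

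The libraries held 23071022 to 27783417 counts each, on 17767 to 18661 loci. Counts of chromosome Y loci were 5525 and 5808 in the IL-4 and untreated libraries numbered 4 and between 0 and 7 in the other 6 libraries. Libraries of the same number deviated together from their group means, with correlations of 0.18 to 0.45 over 13761 loci, each over 0.1, so the numbers were taken to pair the samples. Libraries of different numbers had correlations of -0.33 to 0.30, some of them also over 0.1. IL-4 library 2 correlated more with untreated library 3 (0.30) than with untreated library 2 (0.18). Pairing is therefore not shown for every number, and the main fits did not use it. At an adjusted p under 0.05 in edgeR's quasi-likelihood test (Benjamini-Hochberg), 25.6% of the 13761 tested loci were higher with IL-4 and 26.2% were lower. Of the loci called, 49.4% were higher, and 36.3% were when libraries were scaled by their totals alone, a scaling that moved the median log2 fold change of all loci by -0.11.

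All 5 transcription factor loci passed the expression filter, and all 5 were higher with IL-4. The background of 25.6% called higher stands beside that count. Irf4 had the largest change of the 5, followed by Klf4, Egr2, Myc and Pparg. Their median log2 fold change was 1.78, and that of all tested loci was -0.02. In all 5 the lowest IL-4 library lay above the highest untreated library, which was so for 18.7% of the tested loci. The 5 genes were chosen with earlier results of these data known, so no weight is put on these comparisons with all tested loci. In bulk RNA, more RNA per cell and more cells that express a gene cannot be told apart.

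**Figure D1:**
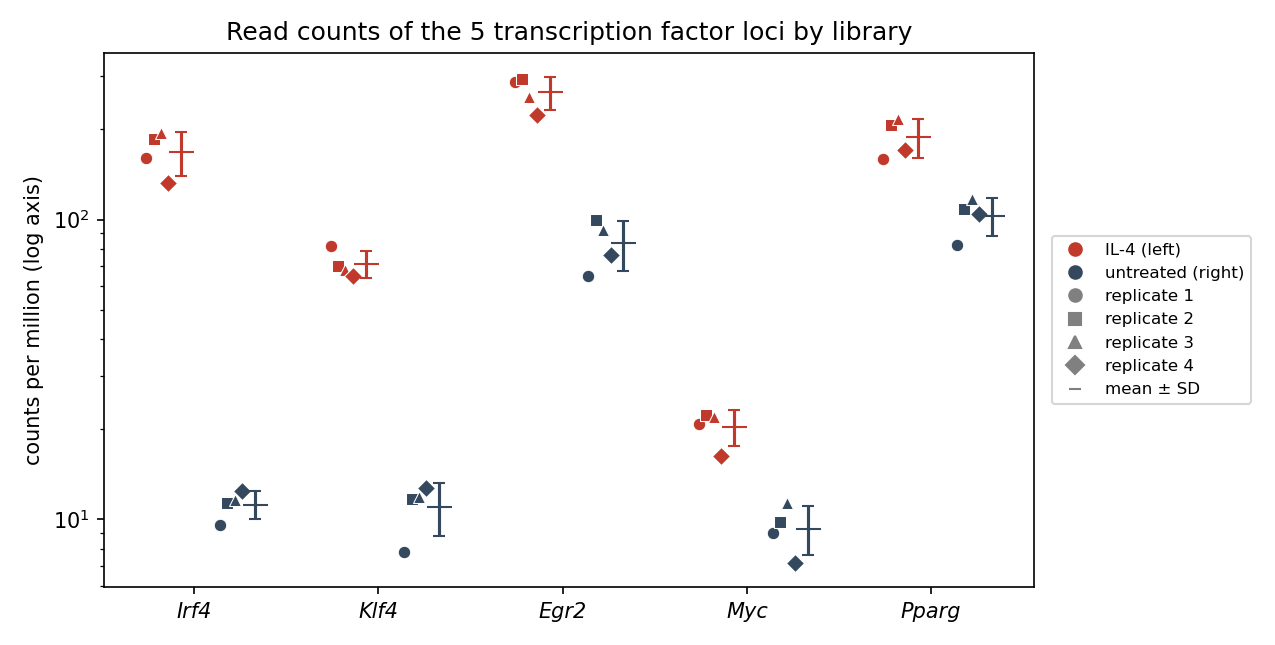
Read counts scaled to the library total (CPM, log axis) of the 5 loci in each library, with IL-4 libraries at the left and untreated libraries at the right of each gene, one symbol shape per replicate number, and the mean ± SD beside them (n = 4 each). For each gene the IL-4 points lie above the untreated points, and the gap narrows from Irf4 (132 to 194 CPM with IL-4, 9.56 to 12.4 CPM untreated) to Pparg (159 to 216 CPM with IL-4, 82.3 to 117 CPM untreated).

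Irf4 encodes a factor that mouse macrophages need for the alternative program. It had 4132, 5159, 4643 and 3578 counts in IL-4 libraries 1 to 4, against 237, 302, 267 and 297 counts in untreated libraries 1 to 4. Scaled to the library total (CPM, counts per 1000000 counts), this was 159.9, 186, 194 and 132 CPM with IL-4 and 9.56, 11.3, 11.6 and 12.4 CPM untreated. The IL-4 libraries were thus all above 100 CPM, library 4 being the lowest, while the untreated ones lay close together near 11 CPM. The log2 fold change was 4.01 (SE 0.13), a 16.1-fold rise (edgeR adjusted p = 3.56e-09), and Irf4 ranked 207 from the top of the 13761 tested loci. Within the same-numbered pairs the log2 ratio of CPM ran from 3.42 to 4.07.

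Klf4 encodes a Krüppel-like factor that is induced by IL-4 through STAT6 in macrophages and acts with STAT6. Its counts were 2105, 1950, 1621 and 1752 with IL-4, against 193, 312, 274 and 305 untreated. In CPM it had 81.5, 70.2, 67.6 and 64.8 with IL-4, against 7.78, 11.7, 11.9 and 12.7 untreated. Untreated library 1 was the lowest of its group and IL-4 library 1 the highest of its group, so that pair 1 had the largest log2 ratio, 3.39, and pair 4 the smallest, 2.35. The fitted log2 fold change was 2.79 (SE 0.13), a 6.94-fold rise (edgeR adjusted p = 4.32e-08).

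Egr2 encodes a zinc-finger factor of the early growth response family that is used as a marker of alternatively activated mouse macrophages. With IL-4 it had the most counts of the 5 loci, with 7418, 8183, 6148 and 6019 in the IL-4 libraries, against 1610, 2668, 2130 and 1823 in the untreated libraries. The levels were 287, 295, 256 and 223 CPM with IL-4 and 64.9, 99.99, 92.3 and 76.1 CPM untreated. The lowest IL-4 library, number 4, stood above the highest untreated one, number 2. The log2 fold change was 1.78 (SE 0.13), a 3.43-fold rise (edgeR adjusted p = 6.85e-07). Of the exonic nucleotides of this long locus, 32.41% also belong to 2 loci on the opposite strand, and how the counter handled strand is not stated in the labels. The exons of the unchanged reference transcripts share 0 nt with other loci. The isoforms TCONS_00005796 and TCONS_00005797, which are these transcripts, had together 50.6 ± 5.42 FPKM with IL-4 and 14.0 ± 2.58 FPKM untreated (SD, n = 4 each). FPKM are the authors' isoform estimates, fragments scaled by isoform length and by the mapped fragments of the library.

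Myc encodes a basic helix-loop-helix factor known for its part in growth and metabolism. It had the lowest mean count of the 5 in both groups, with 538, 619, 526 and 439 in the IL-4 libraries, against 223, 261, 262 and 172 in the untreated libraries. In CPM this was 20.8, 22.3, 21.9 and 16.2 with IL-4 and 8.99, 9.78, 11.4 and 7.18 untreated. Libraries numbered 4 were the lowest in both groups. The log2 fold change was 1.23 (SE 0.13), a 2.35-fold rise (edgeR adjusted p = 1.82e-05).

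Pparg encodes the nuclear receptor PPARγ, which controls genes of fatty acid uptake and storage. Its counts were 4110, 5750, 5184 and 4618 with IL-4, against 2040, 2887, 2702 and 2506 untreated. The levels were 159, 207, 216 and 171 CPM with IL-4 and 82.3, 108, 117 and 105 CPM untreated, with library 1 the lowest in both groups. The log2 fold change was 0.98 (SE 0.12), a 1.97-fold rise (edgeR adjusted p = 4.38e-05). The log2 ratio of CPM within pairs, which is scaled by library totals, ran from 0.71 to 0.95. With that scaling the fitted log2 fold change was 0.87. Pparg thus had the highest mean CPM of the 5 in untreated cells and the smallest change. The isoforms that match reference transcripts, summed, had 29.3 ± 5.07 FPKM with IL-4 and 22.2 ± 4.51 FPKM untreated (SD, n = 4 each), a log2 ratio of 0.41 that did not pass a two-sided exact permutation test (p = 0.114, smallest possible p 0.02857). The rise of the locus by counts and the smaller difference of its reference isoforms are taken up again with the first exons.

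**Figure D2:**
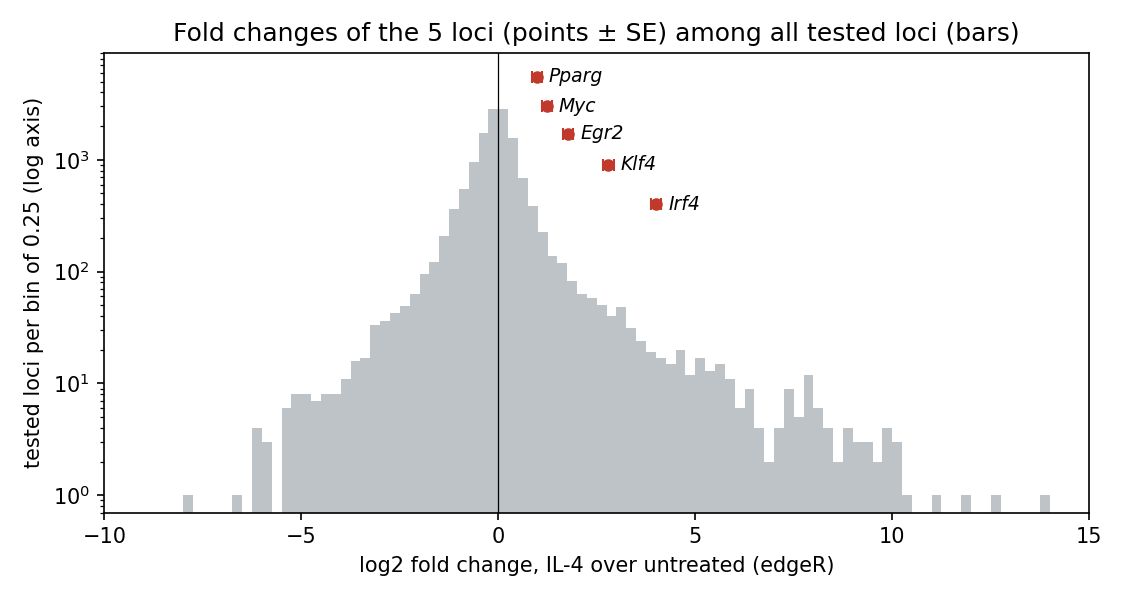
Log2 fold changes, IL-4 over untreated, of the 5 loci (points with SE) above a histogram of all 13761 tested loci (bars of 0.25 log2 units, log axis). The height of a point carries no value. The points run from 0.98 for Pparg to 4.01 for Irf4, all right of 0, where the bars peak.

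Without both libraries numbered 4, the log2 fold changes were 4.15 for Irf4, 2.90 for Klf4, 1.798 for Egr2, 1.21 for Myc and 1.02 for Pparg, and all 5 loci were still called by edgeR, the largest adjusted p being 0.000597 for Pparg. Against a null of a 1.5-fold change (edgeR's glmTreat), which 9.02% of tested loci passed in the higher direction, the 5 loci were called as well, with Pparg again having the largest adjusted p, 0.0054.

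The size of the response was compared between genes as the log2 ratio of their counts within each library, which needs no scaling between libraries. For 9 of the 10 pairs of genes the ratio differed between the IL-4 and the untreated libraries (two-sided exact permutation test, p = 0.02857, the smallest possible with 4 against 4; 0.0317 adjusted over the 10 pairs). The pairs share the same 5 genes and are tied to each other. The share of such pairs over all tested loci, of which 25.6% were higher and 26.2% lower by edgeR, was not computed. No weight is therefore put on this count. The log2 ratio of Irf4 to Klf4 averaged 1.23 ± 0.27 with IL-4 and 0.04 ± 0.17 untreated (SD, n = 4 each), so Irf4 rose more than Klf4 by 1.19 on the log2 scale. The log2 ratio of Irf4 to Pparg was -0.17 ± 0.15 with IL-4 and -3.19 ± 0.12 untreated, which brought the counts of the 2 loci to nearly equal values in IL-4 libraries. Myc and Pparg were the pair not shown to differ in response, with a log2 ratio of -3.21 ± 0.20 with IL-4 and -3.47 ± 0.28 untreated (exact permutation p = 0.229). These ratio tests were added after the fold changes had been seen.

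Levels of different genes were set in order per length, as CPM per kilobase of all exonic sequence of the locus. With IL-4, Pparg was highest at 69.3 ± 10.2 CPM per kilobase, then Irf4 at 33.9 ± 5.61, Klf4 at 10.2 ± 1.06, Egr2 at 8.45 ± 1.05 and Myc at 2.87 ± 0.395 (SD, n = 4 each). Klf4 and Egr2 overlapped between libraries, and the other neighbours in this order did not. In untreated cells Pparg was also highest, at 37.9 ± 5.45 CPM per kilobase, then Egr2 at 2.66 ± 0.504, Irf4 at 2.26 ± 0.241, Klf4 at 1.59 ± 0.318 and Myc at 1.32 ± 0.246. There Egr2 overlapped Irf4 and Klf4 overlapped Myc. The place of Egr2 depends on its length, since 31373 nt of exonic sequence were assigned to the locus and its unchanged reference transcripts cover 2965 nt. By the length of the isoform with most FPKM, Egr2 stood second in both groups, at 89.4 ± 11.1 CPM per kilobase with IL-4 and 28.1 ± 5.33 untreated, and it overlapped Pparg with IL-4. Irf4 then ranked 3 with IL-4 and last in untreated cells, where its libraries overlapped those of Klf4.

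The isoform table gave 33 isoforms at the 5 loci, of which 10 reached 1 FPKM in at least 4 libraries and were tested with limma on log2(FPKM + 0.1). That scale understates changes of low isoforms. In this test 9 of the 10 were higher with IL-4 and 0 were lower, all 10 fold changes being above 1, beside 19.8% higher and 18.5% lower among the 17500 isoforms tested. An isoform that reached the limit through the IL-4 libraries alone had to differ, which holds for the 3 Irf4 isoforms and for 1 of the Egr2 isoforms, so no weight is put on this count.

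Irf4 has 1 group of starts in the merged annotation, and its RNA was spread over 3 isoforms of similar share. The assembled isoform TCONS_00019220 had 7.12 ± 1.18 FPKM with IL-4 and 0.438 ± 0.0965 FPKM untreated (SD, n = 4 each). The reference-matched isoforms TCONS_00019221 and TCONS_00019222 had 6.77 ± 1.04 and 7.37 ± 1.35 FPKM with IL-4, against 0.363 ± 0.131 and 0.592 ± 0.155 FPKM untreated. Since these isoforms reached the limit of 1 FPKM in IL-4 libraries alone, their values are given without a test. TCONS_00019220 skips an internal exon of 108 nt at chr13:30847007-30847114. Isoforms that skip it took up 34.8% ± 2.36 of the FPKM of the locus with IL-4 and 31.7% ± 4.60 untreated, and this share was not shown to differ (exact permutation p = 0.314). The reference isoforms differ from each other by an acceptor site shifted by 3 nt. Isoforms with the later acceptor held 35.9% ± 2.12 with IL-4 and 43.0% ± 10.7 untreated (exact permutation p = 0.314). Untreated shares spread more widely, at FPKM values below 1.

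Klf4 RNA was almost entirely 1 reference-matched isoform, TCONS_00056567, with 15.4, 13.4, 13.0 and 12.6 FPKM in the IL-4 libraries, against 1.42, 2.11, 2.12 and 2.19 FPKM in the untreated libraries. It made up 96.1% ± 0.459 of the FPKM of the locus with IL-4 and 95.2% ± 0.887 untreated. Its log2 fold change was 2.75 (SE 0.14, adjusted p = 2.73e-06 by limma).

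For Egr2 the reference-matched isoform TCONS_00005796, of 2 exons and 2965 nt, carried most of the FPKM of the locus. It had 51.7, 52.6, 46.7 and 40.5 FPKM with IL-4, against 10.6, 16.2, 14.8 and 12.3 FPKM untreated, with 1.83 as its log2 fold change (SE 0.14; adjusted p = 2.16e-05 by limma). A further reference-matched isoform with 3 exons, TCONS_00005797, had 2.75 ± 0.65 FPKM with IL-4 and 0.545 ± 0.269 FPKM untreated, given without a test since it reached 1 FPKM in IL-4 libraries alone. The remaining Egr2 isoforms, including those far downstream, had means of at most 1.06 FPKM in either group.

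Start sites were compared as the log2 ratio of the FPKM of a start to that of the rest of its locus. A rise of the whole gene cancels in this ratio except for the 0.1 FPKM added to both terms, which matters where either is low. Of the 17 starts annotated at the 5 loci, 7 could be tested with limma, and 5 of them passed, including TSS3126 of Egr2, which met the FPKM limit through IL-4 libraries alone. That count stands beside 14.2% of the 8929 starts tested over the whole table. Starts of the same locus are tied to each other, since a gain of one is a loss of the rest.

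Pparg showed the widest shift of starts. Its gene is known to be transcribed from several promoters that give mRNAs with different first exons. Starts named TSS36554 and TSS36555 have overlapping first exons at chr6:115311006-115311388, which hold the start of the reference transcript TSS36555. Downstream by 1012 nt, the first exon of TSS36556 lies at chr6:115312251-115312435. Isoform TCONS_00066003 from TSS36556 had 25.5, 33.3, 37.8 and 24.2 FPKM in the IL-4 libraries, against 4.20, 8.53, 8.33 and 5.74 FPKM in the untreated libraries. The lowest IL-4 library, number 4, lay well above the highest untreated library, number 2. Its log2 fold change was 2.19 (SE 0.24, adjusted p = 0.000168 by limma). Isoform TCONS_00066002, from the reference start, had 21.4, 30.6, 31.0 and 31.1 FPKM in the IL-4 libraries, against 15.7, 21.3, 24.7 and 24.4 FPKM in the untreated libraries. These groups overlapped through IL-4 library 1. The log2 fold change of 0.41 (SE 0.17) did not pass (limma adjusted p = 0.0969). With the replicate number as a block the limma adjusted p was 0.00362, and without IL-4 replicate 1 it was 0.0298. Isoform TCONS_00066001, from TSS36554, had 8.45 ± 1.13 FPKM with IL-4 and 6.06 ± 0.71 FPKM untreated (SD, n = 4 each), a log2 fold change of 0.47 (limma adjusted p = 0.0129). Without both libraries numbered 4 the call of TCONS_00066001 was lost (limma adjusted p = 0.0642).

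As shares of Pparg FPKM, TSS36556 held 43.4%, 43.9%, 46.7% and 36.8% in IL-4 libraries 1 to 4, against 14.5%, 22.3%, 20.4% and 15.6% in untreated libraries 1 to 4. The reference start TSS36555 held 36.3%, 40.4%, 38.2% and 47.3% with IL-4, against 54.1%, 55.7%, 60.5% and 66.0% untreated. The downstream start was thus the larger of these starts in 3 of 4 IL-4 libraries and the smaller in every untreated library. The log2 ratio of TSS36556 to the rest of the locus was higher with IL-4 by 1.75 (SE 0.21, limma adjusted p = 0.00111), and that of TSS36555 was lower by a log2 difference of -1.08 (SE 0.20, limma adjusted p = 0.0102). Both shares reached the smallest possible p in two-sided exact permutation tests (p = 0.02857 each, 0.0495 adjusted over 26 share tests of the 5 loci). An isoform that is alone at its start enters these 26 tests again as the start. The adjusted value rests partly on such repeats and is given no weight. TSS36554 fell as a share, with 12.1% ± 1.78 with IL-4 and 16.8% ± 1.38 untreated and a log2 difference of -0.56 (limma adjusted p = 0.0425), a call that was lost in each of the 8 fits that leave out 1 library (adjusted p 0.055 to 0.108).

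Because first exons a few bases apart can share reads, starts with overlapping first exons were also summed, a grouping made after the data had been seen. The upstream pair of starts then had 37.0 ± 5.37 FPKM with IL-4 and 27.6 ± 4.63 FPKM untreated, and the downstream group 32.5 ± 7.30 FPKM with IL-4 and 7.98 ± 1.62 FPKM untreated (SD, n = 4 each). The downstream group made up 46.1% ± 6.30 of the locus with IL-4 and 22.3% ± 5.01 untreated, and its log2 ratio to the rest was higher by 1.59 (SE 0.26, limma adjusted p = 0.00523). The upstream pair held 52.7% ± 5.57 with IL-4 and 75.9% ± 4.56 untreated, so by mean it stayed the larger group under IL-4. The group means of FPKM lay farther apart for the downstream group than for the upstream pair. The first exon 60845 nt downstream of the reference start, TSS36558, had at most 0.274 FPKM in an IL-4 library and at most 0.24 FPKM in an untreated library. Within replicate number 4, the pair with reads from chromosome Y, the downstream share was 37.4% with IL-4 and 15.6% untreated, and without both libraries numbered 4 the log2 difference of TSS36556 was 1.78 (limma adjusted p = 0.00905). The RefSeq starts of the Pparg windows printed above lie 1205 bases apart on GRCm38 and those of TSS36555 and TSS36556 1012 nt apart on mm9. They are alike in order along the gene, and the windows were not placed on the mm9 exons.

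**Figure D3:**
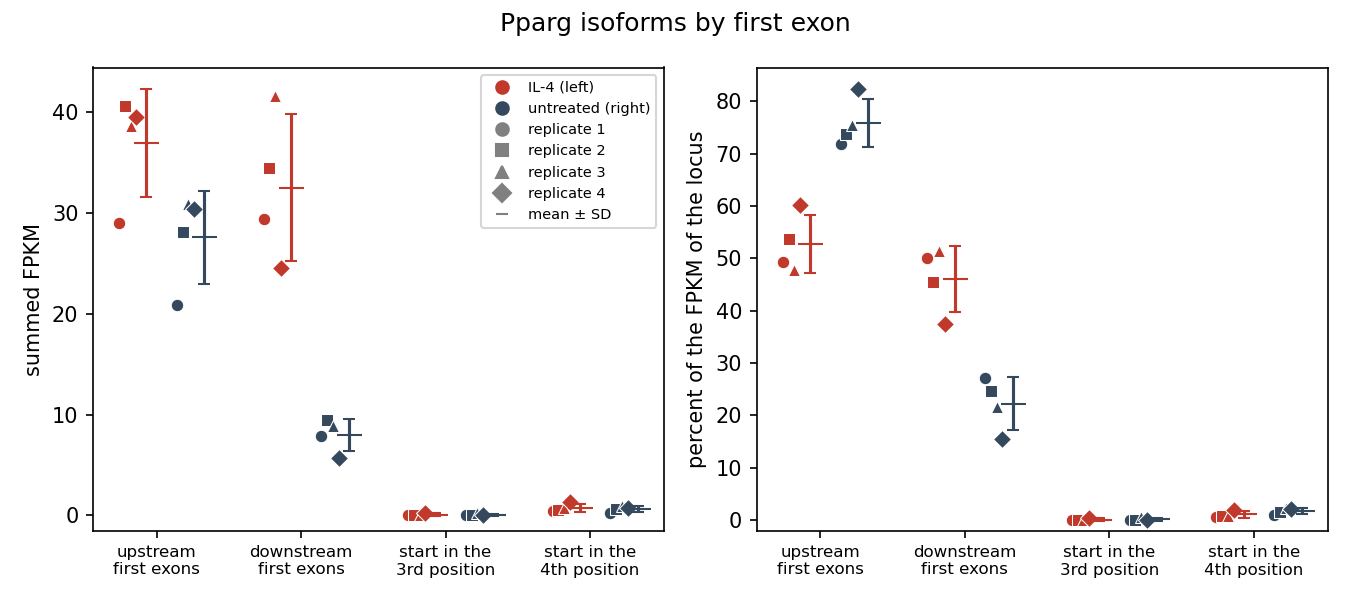
Pparg isoforms grouped by overlapping first exons, in order along the gene, as summed FPKM (left) and as percent of the FPKM of the locus (right). IL-4 libraries are at the left and untreated libraries at the right of each group, with mean ± SD (n = 4 each). The downstream first exons hold 37.4% to 51.4% with IL-4 and 15.6% to 27.2% untreated, and the starts in the 3rd and 4th position are near 0.

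At Egr2, the main start TSS3127, that of the unchanged reference transcripts, held 93.1% ± 0.856 of the FPKM with IL-4 and 88.6% ± 1.36 untreated. Its log2 ratio to the rest of the locus was higher by 0.83 (SE 0.15, limma adjusted p = 0.00889). Without both libraries numbered 4 that call was lost (limma adjusted p = 0.0733) at a log2 difference of 0.77. With 0.01 or 1 FPKM added in place of 0.1, the log2 difference of TSS3127 over all libraries was 0.80 or 1.03. TSS3126, the start of TCONS_00005790 and other isoforms, has a first exon that overlaps that of TSS3127. It held 3.32% ± 0.310 with IL-4 and 5.32% ± 0.427 untreated. It reached 1 FPKM in IL-4 libraries alone, so its call by limma is given no weight. The changes at Egr2 thus concerned a few percent of the FPKM assigned to the merged locus. The rest of that locus includes TCONS_00005798, TCONS_00005799 and TCONS_00005800, which start downstream of the reference transcripts. Whether these are RNA of the Egr2 gene was not tested, so the ratio is not a measure of Egr2 start use alone.

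At Myc, TSS14611, the start of the unchanged reference transcripts with 3 exons, held 57.6% ± 3.75 with IL-4 and 63.7% ± 6.21 untreated, with no call by limma (adjusted p = 0.367). Its isoform TCONS_00026139 had 1.48, 1.85, 2.24 and 1.37 FPKM with IL-4, against 0.901, 1.004, 1.22 and 0.818 FPKM untreated, with 0.75 as its log2 fold change (SE 0.20; adjusted p = 0.0166 by limma). That call was lost without IL-4 replicate 2 (adjusted p = 0.0513) and without IL-4 replicate 3 (0.0511). As a share of the locus this isoform fell, to 41.1% ± 5.67 with IL-4 against 58.5% ± 2.65 untreated (exact permutation p = 0.02857, 0.0495 adjusted over 26 tests). TCONS_00026140, from the same start and shorter by 3 nt, had a share of 16.5% ± 3.99 with IL-4 and 5.26% ± 6.57 untreated (exact permutation p = 0.0571, 0.0929 adjusted). Its untreated FPKM ran from 2.4e-06 to 0.231, and the split between these isoforms rests on the authors' division of shared reads. The share of their start, TSS14611, was not shown to differ (exact permutation p = 0.114). The start farther inside the gene, TSS14612 at chr15:61818977-61819833, had 1.29, 0.943, 1.12 and 0.677 FPKM with IL-4, against 0.23, 0.0495, 0.417 and 0.23 FPKM untreated. Its share was 23.8% ± 4.33 with IL-4 and 13.5% ± 7.24 untreated (exact permutation p = 0.02857, 0.0495 adjusted over 26 tests). Its first exon lies within a longer exon of other Myc isoforms, so these low FPKM values rest on the authors' division of shared reads. The adjusted values of 0.0495 at Myc come from the 26 tests that hold repeats, so they are given no weight.

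**Figure D4:**
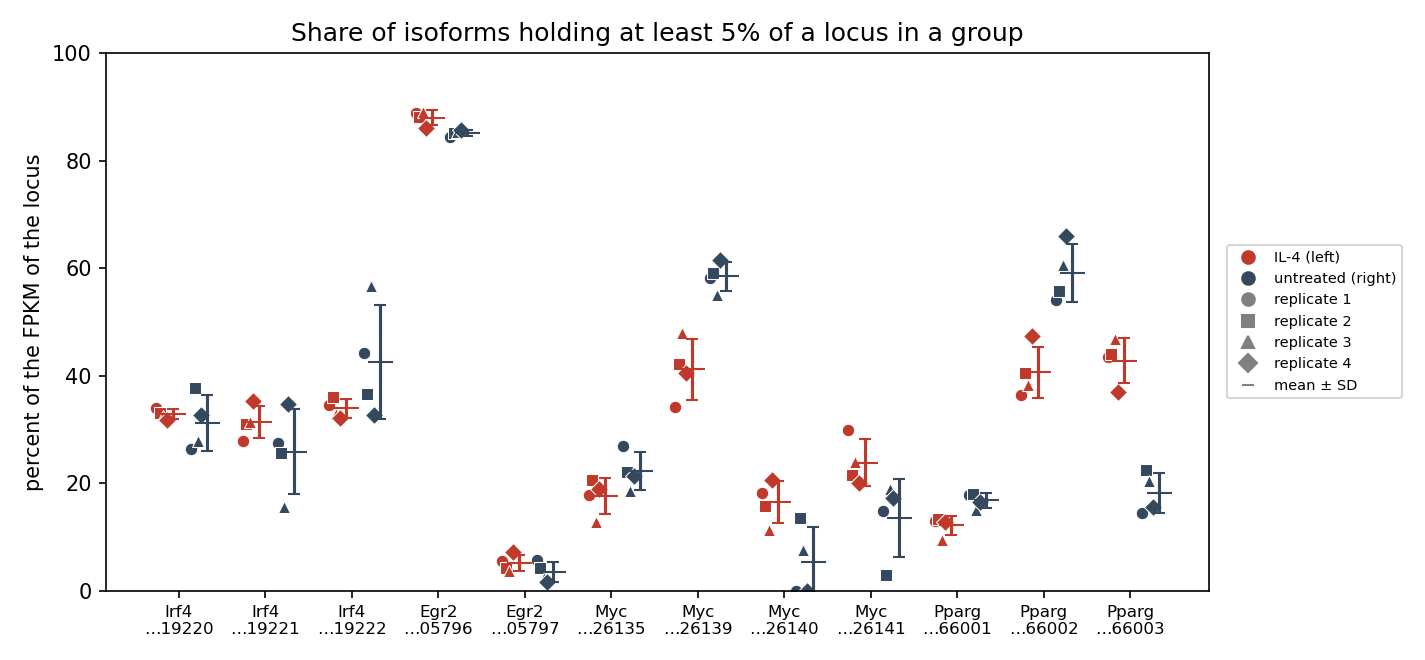
Percent of the FPKM of a locus held by each isoform with a mean share of at least 5% in either group, for Irf4, Egr2, Myc and Pparg (isoforms by the last digits of their ID). IL-4 libraries are at the left and untreated libraries at the right of each isoform, with mean ± SD (n = 4 each). The Irf4 isoforms overlap between groups. The 2 Pparg isoforms at the right edge lie apart in untreated libraries (means 59.1% and 18.2%) and overlap each other under IL-4 (means 40.6% and 42.7%).

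Loci around the 5 genes were read from the same edgeR fit. Within 100 kb of their ends, 25 loci were tested, of which 16 were higher and 1 was lower with IL-4, beside 25.6% and 26.2% of all tested loci. The count was not spread evenly, since 13 of the 16 lie at Egr2.

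At Egr2, 15 neighbouring loci were tested and 13 of them were higher with IL-4. All 15 are unannotated, with means of 0.606 to 4.81 CPM in the IL-4 libraries. A run of 9 lies inside the span of the Egr2 locus itself, downstream of its reference transcripts, mostly as pieces without an assigned strand. One of these, XLOC_003136 at chr10:67059655-67063329, had 75, 136, 92 and 61 counts with IL-4, against 12, 37, 33 and 31 counts untreated, with 1.70 as its log2 fold change (SE 0.31; adjusted p = 0.00089 by edgeR). Outside the span, XLOC_003143 at chr10:67156365-67159674 lies 78559 nt beyond the end of the locus and had 128, 134, 146 and 91 counts with IL-4, against 37, 62, 71 and 31 counts untreated, with 1.34 as its log2 fold change (SE 0.25; adjusted p = 0.00106 by edgeR). In both of these the lowest IL-4 library lay above the highest untreated one. Inside the span, XLOC_002654 on the minus strand was also called higher (adjusted p = 0.0241 by edgeR). It shares 5722 exonic nt with the Egr2 locus itself. The 13 are therefore not a count of separate loci, and no weight is put on it. Whether these pieces and the Egr2 gene share transcripts was not tested. The number called ranged from 10 to 14 when 1 library was left out and was 9 against a 1.5-fold null.

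Myc had 1 tested neighbour, XLOC_008984, an annotated non-coding locus at chr15:61869532-62208396, 45737 nt downstream. It had 459, 556, 493 and 436 counts with IL-4, against 110, 154, 155 and 132 counts untreated. In CPM this was 18.6 ± 2.06 with IL-4 and 5.61 ± 0.939 untreated (SD, n = 4 each), with 1.84 as its log2 fold change (SE 0.12; adjusted p = 4.18e-07 by edgeR), next to 1.23 (SE 0.13) for Myc itself. The groups of this non-coding locus did not overlap.

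At Irf4, 2 of 4 tested neighbours were higher. The protein-coding locus upstream, at chr13:30751907-30803305, had 35.6 ± 1.56 CPM with IL-4 and 39.5 ± 3.99 CPM untreated, a log2 fold change of -0.05 (edgeR adjusted p = 0.667). The protein-coding locus downstream, at chr13:30904703-31078247, had 143 ± 9.11 CPM with IL-4 and 122 ± 4.11 CPM untreated, a rise of 0.34 on the log2 scale (SE 0.06, edgeR adjusted p = 0.00107). The unannotated locus XLOC_006455 at chr13:30803827-30808712 rose by 0.84 (SE 0.18, edgeR adjusted p = 0.00229) at 2.08 CPM with IL-4 and 1.25 CPM untreated. These are all small beside the 4.01 of Irf4. Klf4 had 1 tested neighbour, the unannotated XLOC_020098, whose span begins 443 nt from the Klf4 start, with 1.09 ± 0.229 CPM with IL-4 and 1.55 ± 0.198 CPM untreated (log2 fold change -0.40, edgeR adjusted p = 0.0974).

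Of the 4 tested neighbours of Pparg, 0 were called higher and 1 was called lower by edgeR. All 4 had negative log2 fold changes, beside a median of -0.02 over all tested loci. The protein-coding locus downstream, at chr6:115494722-115528354, had 5.79 ± 0.618 CPM with IL-4 and 7.08 ± 0.967 CPM untreated (log2 fold change -0.18, edgeR adjusted p = 0.254). The unannotated locus at chr6:115236217-115267184 fell, with 3.57 ± 0.502 CPM with IL-4 and 5.73 ± 0.924 CPM untreated (log2 fold change -0.57, SE 0.15, edgeR adjusted p = 0.00796).

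**Figure D5:**
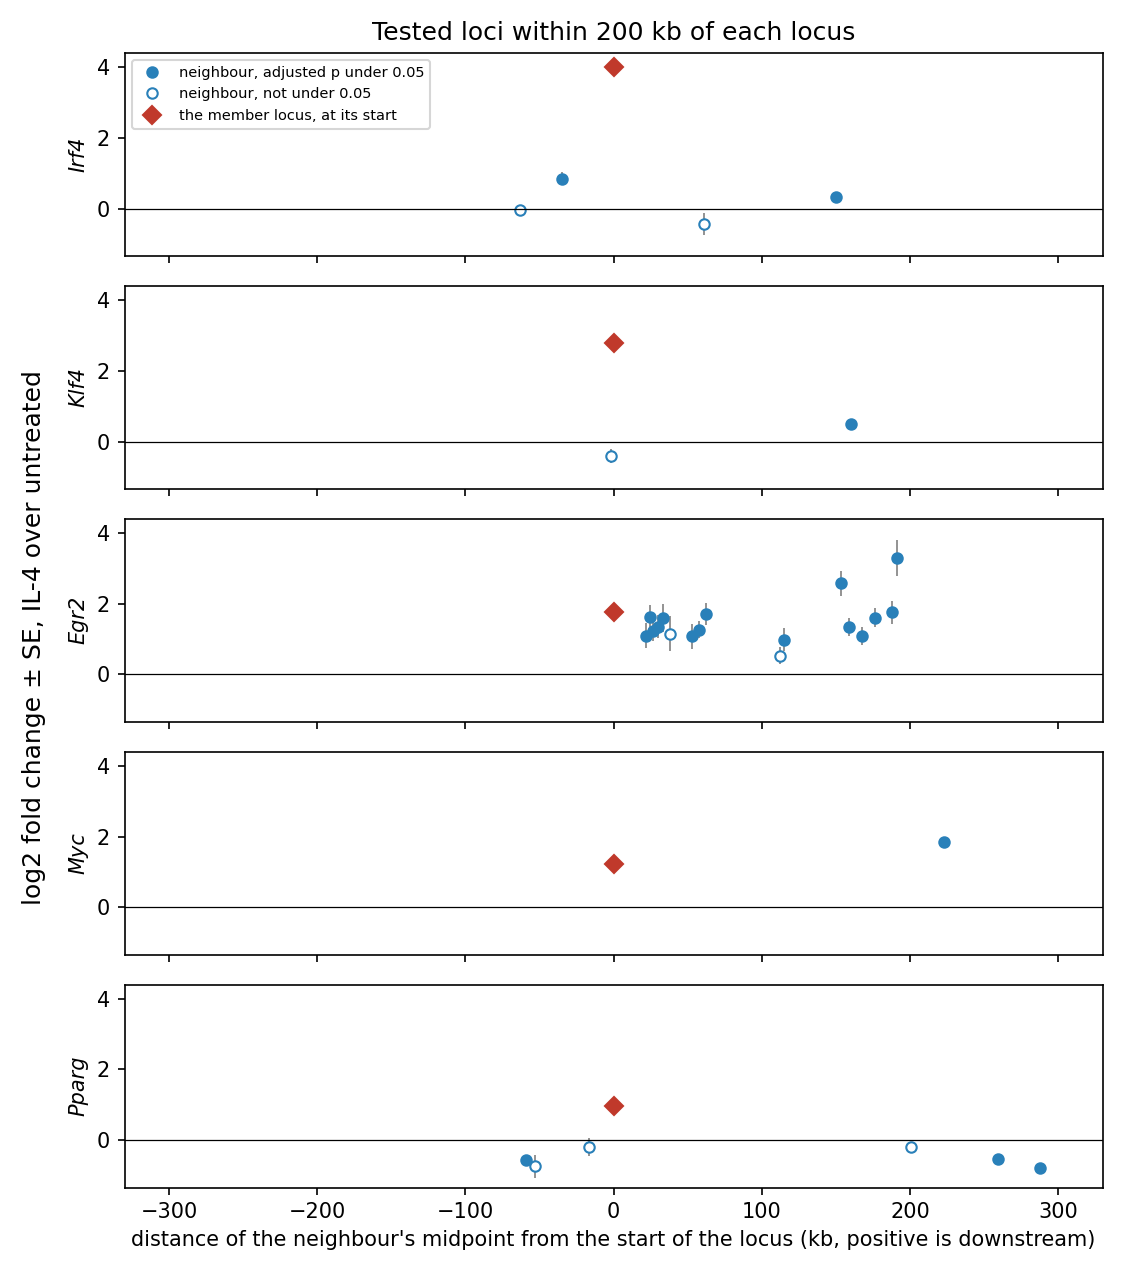
Log2 fold changes, IL-4 over untreated, with SE, of the tested loci within 200 kb of the ends of each of the 5 loci, by distance of their midpoint from the start of the gene (kb, positive is downstream). Filled circles passed the edgeR threshold and open circles did not. The circles at Egr2 lie above 0 along the whole downstream side, while those at Pparg lie below 0.

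For each gene, the 2 protein-coding loci outside its 100 kb window with the most similar profile were taken, by the Euclidean distance between log2(CPM + 0.5) values over the 8 libraries, each centred on its mean. For Irf4 the nearest was chr14:70930492-70938131 (distance 0.25), with 6.97 ± 1.03 CPM with IL-4 and 0.0104 ± 0.0209 CPM untreated, a far lower level. Likeness on this scale is therefore partly set by the 0.5 added to low values. For Klf4 it was chr2:119176978-119180062 (distance 0.28), with 9.45 ± 0.494 CPM with IL-4 and 1.18 ± 0.334 CPM untreated. For Egr2 it was chr3:121426455-121437970 (distance 0.28), with 6.86 ± 1.20 CPM with IL-4 and 1.87 ± 0.428 CPM untreated, and the second was chr4:120640922-120689852 (distance 0.30), at 157 ± 22.7 CPM with IL-4 and 48.2 ± 6.39 CPM untreated. The second is close to Egr2 in level as well. For Myc they were chr3:104583657-104588935 (distance 0.27), and chr12:81261933-81361485 (distance 0.28), the first at 2.97 ± 0.556 CPM with IL-4 and 1.19 ± 0.215 CPM untreated. For Pparg they were chr19:29326318-29387570 (distance 0.24) and chr13:113450885-113528960 (distance 0.25). The first of these had 130.4 ± 16.2 CPM with IL-4 and 76.6 ± 9.15 CPM untreated, an abundance like that of Pparg. The second neighbours of Irf4, at chr1:40281925-40373040, and of Klf4, at chr7:25216860-25230733, stood farther off, at distances of 0.40 and 0.49. These loci were chosen for their likeness, so their values are a description and carry no test.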

How the data were processed

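Per the submitters' processing notes, reads were handled on build mm9 with HTSeq, Cufflinks 2.1.1, TopHat2 2.0.9 and CASAVA 1.8.2, and no setting is given there. What the authors deposited are read counts, whole numbers, of 31020 loci, and isoform FPKM, fragments scaled by isoform length and library, with a merged annotation of 89219 transcripts. Each value column carries the code of 1 library's label, and 0 columns went unused. The members and lists were chosen with earlier results of these data known. The lists of markers and pathway genes need gene names and could not be used.

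For the counts, edgeR 4.0.16 (R 4.3.3) was run (TMM factors, default expression filter, quasi-likelihood test, two-sided, Benjamini-Hochberg adjustment over 13761 loci, threshold 0.05). SEs were derived from the test's F value. CPM are counts scaled to the library total. Isoforms at 1 FPKM or more in at least 4 libraries, and log2 ratios of start sites with 0.1 added, were tested with limma 3.58.1 with a variance trend. Shares were compared by exact permutation tests with scipy 1.17.1. Isoforms with close first exons share most reads, and for FPKM the depth behind a value is unknown. Named were the 5 loci, their isoforms with a mean of at least 1 FPKM in a group, tested loci within 100 kb (by counts and examples) and the most alike loci. Replicate libraries differed by more than sampling noise (chi-square per degree of freedom 4.79 to 41.4), so none was merged. The lowest count of the 5 loci in a library was 172. Libraries of the same number correlated in their deviations at 0.45, 0.18, 0.28 and 0.21, which was taken as pairing, though some libraries of different numbers correlated as much. Alternatives were RLE, upper-quartile and total-count scaling, DESeq2 1.42.0, limma-voom, a 1.5-fold null, other filters and pseudocounts, a replicate block and libraries left out.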

Additional observations from a re-analysis of the deposited data

Results flagged for a closer look

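Of 56 groups of 4 libraries checked, 4 held a library far from the other 3, and chance gives about 1 in 20. In untreated library 3 the Irf4 isoform TCONS_00019222 had 0.823 FPKM, and 0.506 to 0.529 FPKM in the other untreated libraries. In untreated library 1 the Klf4 isoform TCONS_00056567 had 1.42 FPKM, below the 2.11 to 2.19 FPKM of the others. In IL-4 library 1 the Pparg isoform TCONS_00066002 had 21.4 FPKM, below the 30.6 to 31.1 FPKM of the other IL-4 libraries, and without this library the isoform was called (limma adjusted p = 0.0298, range over its 15 alternatives 0.00362 to 0.273). In IL-4 library 3 the Pparg start TSS36554 had a share of 9.49%, below the 12.8% to 13.3% of the others.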

How the results depend on the processing

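All 5 loci kept their direction and their call in 18 alternatives on counts, with log2 fold changes of 3.90 to 4.15 for Irf4, 2.67 to 2.90 for Klf4, 1.67 to 1.87 for Egr2, 1.12 to 1.33 for Myc and 0.87 to 1.07 for Pparg. With the summed FPKM of reference isoforms in place of counts, a measure added later, Pparg had 0.41 and was not called. With the replicate block the log2 fold changes were 4.00 for Irf4, 2.80 for Klf4, 1.79 for Egr2, 1.24 for Myc and 0.98 for Pparg, and the block changed no call of a locus. Among the isoforms and starts tested it changed the call of Pparg TCONS_00066002 alone.

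Over the whole table, 3524 loci were higher and 3603 lower, and a 1.5-fold null left 1241 and 1226. Of the isoforms, 9 were called higher, 15 with no FPKM filter, 4 to 9 with 1 library left out and 4 without both libraries numbered 4. Fewer IL-4 libraries leave fewer isoforms that reach the limit in 4 libraries. Of the starts, 5 were called, 3 to 4 with 1 library left out and 2 without both libraries numbered 4, the Pparg starts TSS36555 and TSS36556, whose calls held in each of 14 alternatives. Of the neighbours, 16 were higher and 1 lower. A 1.5-fold null left 10 and 0. The number lower was 2 with totals alone and with the replicate block, 3 within 200 kb and 1 to 2 with 1 library left out. The order of levels moved with the length used. By the main isoform, Egr2 ranked 2, Irf4 3 and Klf4 4 with IL-4, and Myc ranked 3 and Irf4 5 untreated. By summed FPKM, the IL-4 ranks were 2, 3 and 4 for Egr2, Irf4 and Klf4, and the untreated ranks were 3, 4 and 5 for Klf4, Myc and Irf4. The orders by all exonic sequence and by the main isoform divide the same CPM by different lengths. Why the order by summed FPKM differs from them was not tested. Isoform FPKM under 1 are the limit for Myc and for untreated Irf4.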
